A study of Mus musculus with 41 samples.

Results

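Immunity-related GTPases (IRG) and guanylate-binding proteins (GBP) are GTP-hydrolysing proteins that mouse cells make in large amounts after exposure to interferon-gamma. The 10 genes described here are Irgm1, Irgm2, Igtp, Iigp1, Ifi47 and Tgtp1, which encode IRG proteins, and Gbp2, Gbp3, Gbp6 and Gbp7, which encode GBPs. They are 10 of the 24557 genes measured in Trp53-null mouse mammary tumors. They were selected on the log2 ratio of tumor to reference in early against late epithelial tumors, with Irgm1 named as standing out and these values in view. That contrast is therefore described below without a test, and tests are given for diet, for histology and for onset in spindle cell tumors. The ratios were read by histology, diet group and onset for the choice, so these tests are not fully independent of it.

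Interferon-gamma, secreted mainly by T cells and natural killer cells, acts through the receptor chains Ifngr1 and Ifngr2 and the kinases Jak1 and Jak2 and induces the transcription factor Irf1. Promoters of interferon-gamma target genes often hold a gamma-activated site (GAS) or an interferon-stimulated response element (ISRE), and Irf1 binds the latter. Irgm1, Irgm2 and Igtp are regulatory IRG proteins that sit on the cell's own membranes and keep the effector IRG proteins, among them Iigp1, Ifi47 and Tgtp1, inactive there. Effector IRG proteins and GBPs coat the vacuoles of intracellular parasites and bacteria. GBPs also take part in inflammasome activation. In a tumor, interferon-gamma comes mostly from infiltrating lymphocytes, and the GTPases can be made by tumor cells as well as by host cells.

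Total RNA of 41 tumors was hybridised to 2-colour 44K Agilent arrays, each against a reference RNA pooled from 11 mouse cell lines. The tumors grew in wild-type BALB/c females after mammary duct fragments of Trp53-null donors were placed in cleared fat pads, so vessels, stroma and immune cells in each tumor came from a Trp53 wild-type host. From 3 weeks of age the hosts ate a low fat diet with 10% of energy from fat (LFD) or a high fat diet with 60% (HFD) throughout, or changed at 10 weeks (HFD-LFD, LFD-HFD). The 29 epithelial tumors comprised 8 LFD, 8 HFD, 7 HFD-LFD and 6 LFD-HFD tumors. Of these, 14 were early and 15 late, split at 52 weeks. The 12 spindle cell tumors comprised 3 of each regimen, 3 of them early and 9 late. All groups carried the Trp53-null allele, and no group of Trp53 wild-type tumors or of untransplanted glands entered these comparisons. The Trp53 probe averaged a log2 ratio of 0.22 ± 0.68 (SD) over the 14 early epithelial tumors and of 0.05 ± 0.58 over the 15 late ones. Whether it lies in the deleted part was not determined.

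Epithelial and spindle cell arrays were never on the same slide or in the same scan session, so histology and session cannot be told apart. The labels give the tumor as Cy5 and the study's methods give the reference as Cy5. Ddx3y and Eif2s3y, which lie on the Y chromosome, were brighter in Cy3 on 41 of 41 arrays, and values here follow the labels. In the authors' matrix the columns of the HFD tumors 40R4A, 57R and 65R correlated best with each other's scanner files (r from 0.965 to 0.968, against 0.759 to 0.837 with their own). The scanner labels were kept, and results are also given without these tumors. The share of spots that the scanner software marked as well above background for the tumor dye was 61.6% to 77.9% on early and 51.2% to 94.9% on late epithelial arrays.

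Of the markers, 5 of 6 mesenchymal genes rose in spindle cell tumors, Vim by 1.19 (standard error 0.31, adjusted p = 0.00589) and Col1a1 by 1.36 (standard error 0.36, adjusted p = 0.00772), both limma, where 15.1% of all genes passed. The endothelial markers Pecam1, Cdh5 and Kdr, 3 of 4, also rose, and none of them passed with slide as a random block (Pecam1, adjusted p = 0.0864). Of 13 T and NK cell markers Cd8a fell by 0.69 (limma, adjusted p = 0.0221), and the other 12 did not pass. All 7 epithelial markers were lower in spindle cell tumors, by differences of -1.10 (Krt19) to -0.25 (Krt5) with a median of -0.43, but 0 of 7 passed. The epithelial marker mean lay between -0.37 and 3.001 in epithelial tumors and between -2.42 and 1.68 in spindle cell tumors.

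The genes lie in clusters. By the probe positions on NCBI37/mm9, Irgm1 (chr11:48679069-48679128), Tgtp1 (chr11:48799587-48799646) and Ifi47 (chr11:48910402-48910461) are neighbours on chromosome 11. Igtp (chr11:58020927-58020986) and Irgm2 (chr11:58036093-58036152) form a second group on the same chromosome. Gbp7 (chr3:142209379-142209438), Gbp3 (chr3:142236032-142236091) and Gbp2 (chr3:142300719-142300778) lie together on chromosome 3. Gbp6 (chr5:105700056-105700115) is on chromosome 5 and Iigp1 on chromosome 18.

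Promoter windows from 250 bases before to 50 bases after the transcript start were available for 8 of the 10 genes (RefSeq, GRCm38.p6). They are shown because the GTPases moved together across tumors. The ISRE letters GAAANNGAAA, searched on both strands, were in the windows of 7 of these 8 genes and in 3.44% of all 32851 windows of the same length. Capitals mark the matches, each sequence runs 5′ to 3′ on the gene's strand, and the Irgm1 and Gbp3 windows each hold 2 overlapping matches.

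Irgm1, chr11:48871423-48871462 (-): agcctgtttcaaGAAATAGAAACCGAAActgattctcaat
Irgm2, chr11:58214901-58214934 (+): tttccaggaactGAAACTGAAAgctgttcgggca
Igtp, chr11:58199510-58199543 (+): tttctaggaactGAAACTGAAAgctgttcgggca
Tgtp1, chr11:48992302-48992335 (-): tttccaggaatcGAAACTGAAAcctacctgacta
Gbp2, chr3:142620592-142620625 (+): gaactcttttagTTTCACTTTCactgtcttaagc
Gbp3, chr3:142559987-142560026 (+): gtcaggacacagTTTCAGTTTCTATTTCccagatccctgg
Gbp7, chr3:142530271-142530304 (+): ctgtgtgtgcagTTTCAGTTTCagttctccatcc

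In the IRG genes the match reads GAAANNGAAA on the gene's strand, and in the GBP genes on the opposite strand. Its first base lies between 30 bases (Irgm1) and 77 bases (Tgtp1) before the transcript start. The GAS letters TTCNNNGAA were in the windows of 4 of the 8 genes (Irgm2, Igtp, Tgtp1 and Gbp7) and in 8.3% of all windows. In Irgm2, Igtp and Tgtp1 the GAS match begins 11 bases before the ISRE match, in the lower-case letters at the left of the printed sequence. The window of Ifi47 held neither. A match describes the letters only and is not evidence of binding.

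In the early epithelial tumors all 10 GTPase genes had higher mean log2 ratios than in the late ones, by 0.62 (Gbp2) to 1.12 (Irgm1), or 1.54-fold to 2.17-fold. The median difference over the 10 genes was 0.95, and the median over all genes measured was 0.003. These are the values that chose the genes and carry no test. On the ratio of processed signals, which the choice used, the same differences ran from 0.58 (Gbp2) to 1.82 (Tgtp1), all above 0, with a median of 1.02. Irgm1 differed by 1.005 on that ratio and ranked 6 of the 10, so it was not the largest there. Over all genes, 0.00407% were called in this contrast at an adjusted p of 0.10 (limma), which is 1 gene, E130104P22Rik, named after its value was seen. On processed signals 0.151% of all genes were called (37 genes) and in the authors' matrix 0.0602% (12 genes). Calls among the 10 are not given, because the choice used this contrast. Nothing is read from these counts for the GTPases.

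**Figure D1:**
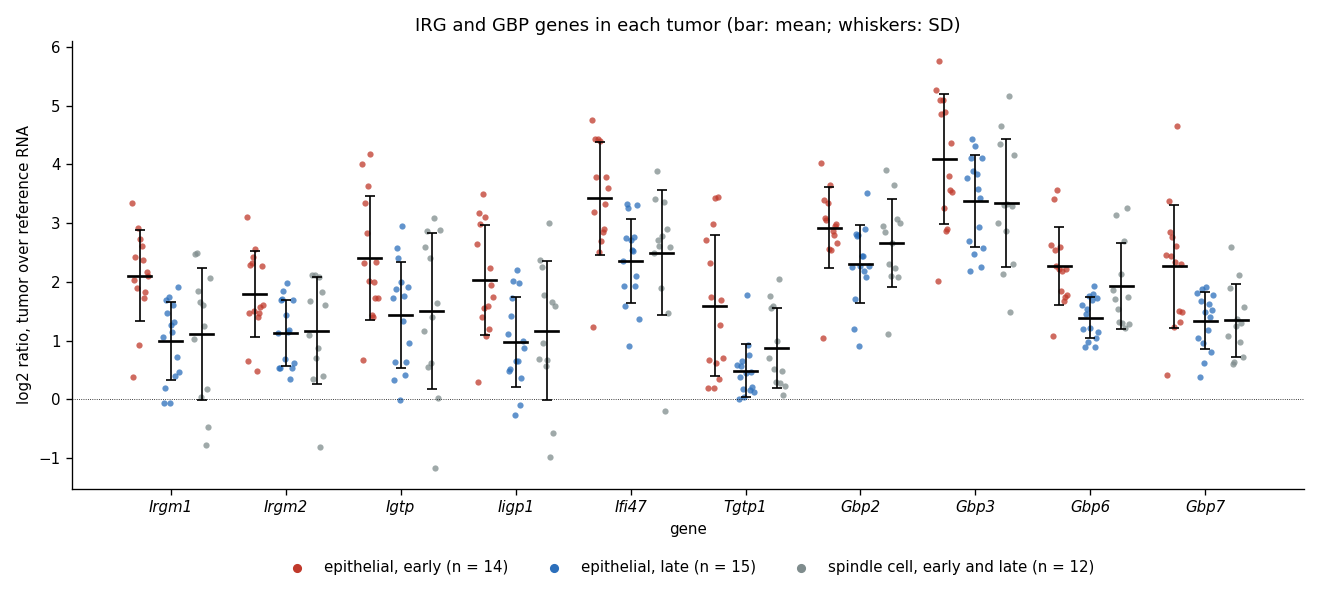
Log2 ratio of tumor over reference RNA (vertical axis) of the 10 IRG and GBP genes (horizontal axis), 1 point per tumor, for 14 early and 15 late epithelial tumors and 12 spindle cell tumors, with the mean (bar) and SD (whiskers). The early epithelial mean is above the late one for each gene, and the points of the groups overlap.

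The regulatory IRG genes differed by 0.66 to 1.12. Irgm1, a master regulator of the IRG system that is also linked to autophagy, ranged from 0.37 through a median of 2.13 to 3.35 in early tumors. In late tumors it ranged from -0.07 through 1.14 to 1.91. The means were 2.10 ± 0.77 (SD, n = 14) and 0.99 ± 0.67 (SD, n = 15), a difference of 1.12 (standard error 0.26). The groups overlapped. Irgm2 had means of 1.80 ± 0.74 and 1.14 ± 0.56, the smallest difference of this class at 0.66 (standard error 0.23). For Igtp, the regulator also named Irgm3, early values ran from 0.66 to 4.18 around a median of 2.16 and late values from -0.01 to 2.95 around 1.72.

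The effector IRG genes differed by 1.05 to 1.11. Iigp1, the best studied effector, which loads onto parasite vacuoles, had early values of 0.29 to 3.49 with a median of 1.85 and late values of -0.28 to 2.20 with a median of 0.87. Ifi47 had means of 3.42 ± 0.96 and 2.36 ± 0.72. Tgtp1, a T cell-specific GTPase by its original name, was uneven: early tumors spanned 0.18 to 3.45 and late tumors -0.003 to 1.78. The Tgtp1 probe was the dimmest of the 10, well above background on 37 of 41 arrays in the tumor channel. It shares transcripts with Tgtp2, so the near-identical genes cannot be told apart by it.

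The GBP genes differed by 0.62 to 0.93. Gbp2 and Gbp3, neighbours on chromosome 3, had early medians of 2.97 and 4.08 and late medians of 2.27 and 3.58. Gbp6 was the most even within its groups: early values ran from 1.07 through 2.22 to 3.56 and late values from 0.89 through 1.45 to 1.93. Its difference was 0.87 with the smallest standard error of the 10, 0.19. Gbp7 had means of 2.27 ± 1.05 and 1.34 ± 0.48. Its highest value, 4.65, came from the early HFD tumor 60L, which was scanned in another session than 27 of the epithelial arrays. The highest epithelial value of Tgtp1, 3.45, came from 60L as well. On that array 22% of spots were marked as outliers, the largest share of any array. Its column in the authors' matrix correlated with its scanner file at r = 0.872. Without tumors 60L, 42L4B and the spindle cell tumor M86R the median difference over the 10 genes was 0.98.

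A second probe was present for 4 genes. For Irgm1 it gave a difference of 1.15 and correlated with the first at r = 0.92 over 28 epithelial tumors. The second Iigp1 probe gave 1.51 (r = 0.78) and the second Gbp6 probe, which shares a transcript with Gbp10, 0.95 (r = 0.81). The second Gbp7 probe was at background, with 16 of 41 arrays well above it, and gave 0.07 (r = 0.26).

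By regimen, Irgm1 is given tumor by tumor. Early LFD tumors had log2 ratios of 2.42, 1.89, 2.92 and 0.92, and late LFD tumors 1.46, -0.07, 1.26 and 1.14. Under HFD, early tumors had 2.73, 2.61, 2.37 and 1.73 and late tumors 1.6, 1.31, 0.39 and 0.72, and these did not overlap. With the matrix's labels for 40R4A, 57R and 65R they did, since an early tumor would be at 1.31 and a late one at 1.73. Early HFD-LFD tumors were uneven at 3.35, 0.37 and 2.04, and late ones had -0.07, 0.20, 1.68 and 1.74. Early LFD-HFD tumors lay close together at 1.82, 2.16 and 2.11, with late values of 1.07, 1.91 and 0.47. The early minus late difference of Irgm1 was thus 1.09 under LFD, 1.35 under HFD, 1.03 under HFD-LFD and 0.88 under LFD-HFD. All 10 genes had a higher early mean under LFD, HFD and HFD-LFD, with medians of 1.08, 0.95 and 0.97. Under LFD-HFD 9 of 10 did, with a median of 0.54, and Gbp7 was at -0.007. Whether the regimens differ in this was not tested.

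**Figure D2:**
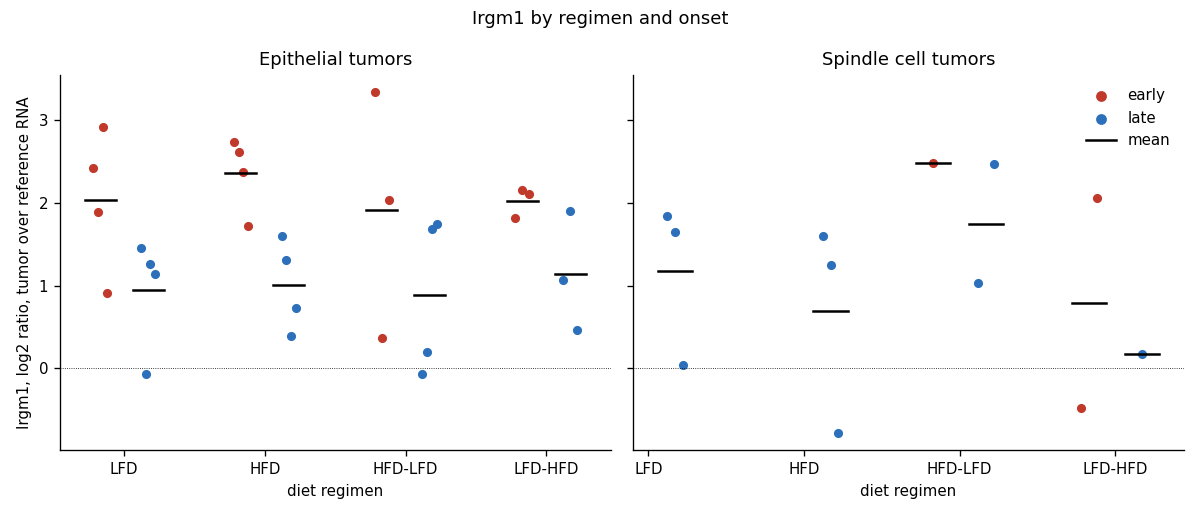
Log2 ratio of Irgm1 over reference RNA (vertical axis) by diet regimen (horizontal axis) and onset, 1 point per tumor, with the mean as a bar, in epithelial (left) and spindle cell tumors (right). In epithelial tumors the early mean exceeds the late mean in each regimen, from 0.88 under LFD-HFD to 1.35 under HFD, and only the HFD groups do not overlap, which rests on the scanner labels of tumors 40R4A, 57R and 65R.

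Most slides of epithelial tumors held tumors of 1 onset. On the 3 of these slides with both, which carried 12 epithelial tumors, all 10 genes had higher early means. The medians of the differences were 0.91 (1 early against 3 late, LFD-HFD), 1.19 (2 against 2, HFD) and 0.64 (2 against 2, HFD and LFD-HFD). Irgm1 differed there by 1.02, 1.21 and 0.97. Of these slides, the HFD one held tumors 40R4A, 57R and 65R, so its values rest on their scanner labels. On the last of these slides both early tumors were LFD-HFD and both late ones HFD, so onset and regimen cannot be told apart there. With slide as a fixed block Gbp7 went from 0.93 to 0.46, Gbp6 from 0.87 to 0.58 and Irgm2 from 0.66 to 1.04. The median over the 10 genes was then 1.02. In the fit without a block it was 0.97 when tumors 40R4A, 57R and 65R were left out.

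The GTPase genes varied together from tumor to tumor. Over the 29 epithelial tumors, which share the reference RNA and, in sets of up to 4, a slide, the 45 pairs of genes had Pearson r from 0.47 (Irgm2 with Gbp7) to 0.93 (Irgm2 with Igtp), with a median of 0.72. Irgm2 and Igtp are adjacent genes. Ifi47 followed the other 9 most closely (r = 0.92) and Gbp7 least (r = 0.68). In the 12 spindle cell tumors the pairs ran from 0.02 (Irgm1 with Gbp6) to 0.95 (Irgm2 with Igtp), with a median of 0.66. Correlations here and below are descriptions of these tumors.

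Averaged over the 10 genes, the highest epithelial values were those of an early HFD-LFD tumor (3.49), the early LFD tumor 22R (3.46) and the early HFD tumor 40R4A (3.39). At the other end were the late LFD tumor 13L (0.70) and an early HFD-LFD tumor (0.79). Of the 10 highest epithelial tumors 8 were early, and of the 10 lowest 9 were late. The exception among the lowest, the early HFD-LFD tumor, shares its label number with another early HFD-LFD tumor, whose average was 2.88. Tumors 11L (late) and 11R (early), both LFD, averaged 2.21 and 3.13.

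**Figure D3:**
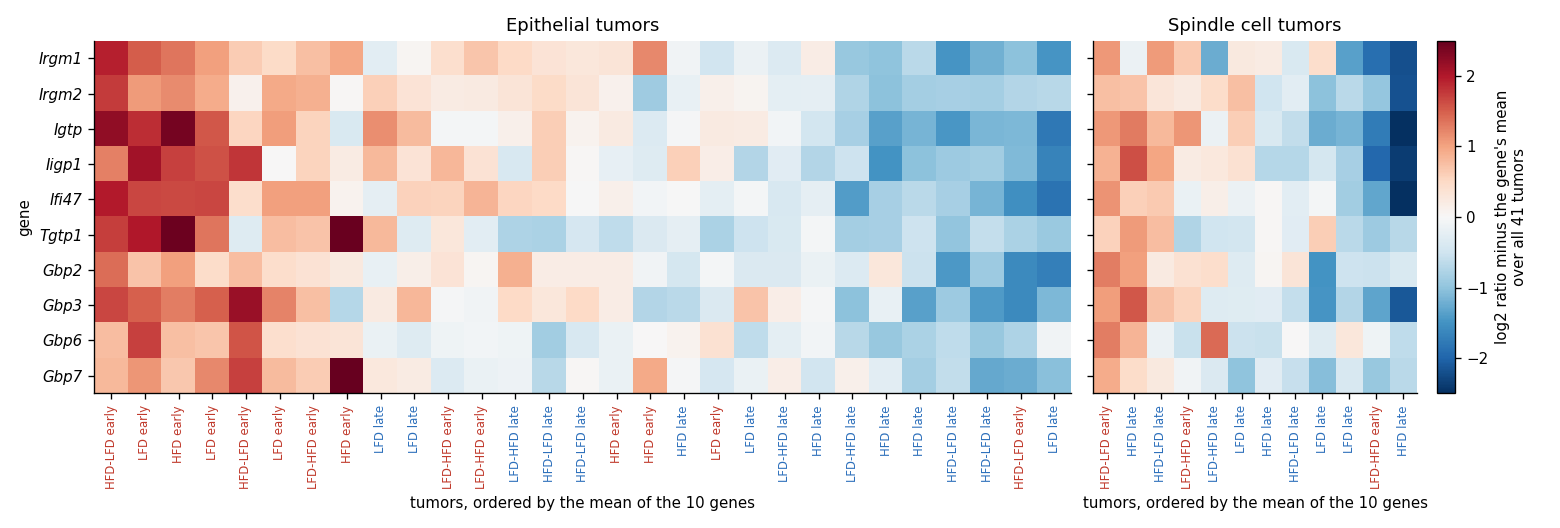
Log2 ratio of each GTPase gene (rows) in each tumor (columns, ordered by the average of the 10 genes), shown as the difference from the gene's mean over all 41 tumors, red above and blue below. Columns tend to be of 1 colour, and 8 of the 10 leftmost epithelial tumors are early (red labels) while 9 of the 10 rightmost are late (blue labels).

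Diet was tested in the 29 epithelial tumors. Across the 4 regimens 0 of the 10 genes passed (limma moderated F, adjusted p from 0.635 to 0.946, against 0.525% of all genes). The means of the regimens lay 0.35 to 0.84 apart, and the range over all genes had a median of 0.35. None of the 10 had an unadjusted p below 0.05. Irgm1 averaged 1.49 ± 0.93 (SD, n = 8) under LFD, 1.69 ± 0.86 (n = 8) under HFD, 1.33 ± 1.23 (n = 7) under HFD-LFD and 1.59 ± 0.68 (n = 6) under LFD-HFD. These neighbours differed by less than the spread within each regimen.

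For pubertal HFD, which sets HFD and HFD-LFD against LFD and LFD-HFD, 0 of 10 genes passed and 0 of 10 had an unadjusted p below 0.05, while 1.44% of all genes passed (limma). SAM, the statistic the study's methods name, called 0 of 10 and 8.74% of all genes. The differences ran from -0.44 (Gbp3) to -0.02 (Irgm1), with adjusted p from 0.467 to 0.989. Irgm1 ranged from -0.07 to 3.35 in the 15 tumors with pubertal HFD and from -0.07 to 2.92 in the other 14. Its 95% interval was -0.69 to 0.66. The median over the 10 genes was -0.24, beside 0.02 over all genes. With slide as a fixed block it was -0.64, which rests on 1 slide with 2 late HFD against 2 early LFD-HFD tumors. Diet and onset cannot be told apart there. The median was -0.39 with median centring and -0.38 without tumors 40R4A, 57R and 65R. The same contrast in all 41 tumors gave differences of -0.28 to 0.16, 0 of 10 past the threshold by limma or SAM, and 0 of 10 with an unadjusted p below 0.05. Of all genes SAM called 0.261% and limma 0.00814%, which are Spats2 and Wdr20a, named after their values were seen. Some markers of macrophages and vessels rose with pubertal HFD in epithelial tumors. By limma, Lyz2 rose by 1.14 (adjusted p = 0.0507), Cd68 by 0.64 (adjusted p = 0.0813), Kdr by 0.54 (adjusted p = 0.0507) and Pecam1 by 0.60 (adjusted p = 0.0913). Of the 9 macrophage markers 7 were above 0, with a median of 0.32. Among them Emr1 was at 0.11, while Cd14 (-0.03) and Fcgr1 (-0.40) were below 0. The 4 markers that passed were 2 of 9 macrophage and 2 of 4 endothelial markers. None of these 4 passed with slide as a random block (lowest adjusted p = 0.123). None passed as a fixed block either (lowest adjusted p = 0.719), but that fit cannot decide on diet, since it rests on the same 1 slide. The part of these 4 markers in the values of the GTPase genes was not tested.

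For adult HFD, which sets HFD and LFD-HFD against LFD and HFD-LFD, 0 of 10 genes passed by limma (adjusted p = 0.999 for each) or SAM, and 0 of 10 had an unadjusted p below 0.05. Of all genes 0% passed by either. Differences lay between -0.49 (Gbp3) and 0.23 (Gbp2).

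Between histologies 0 of 10 genes passed at an adjusted p of 0.05, by limma, against 15.1% of all genes, or by SAM, against 23.1%, and 0 of 10 had an unadjusted p below 0.05. Differences of spindle cell from epithelial tumors ran from -0.44 (Gbp7, 95% interval -1.02 to 0.13, adjusted p = 0.305) to 0.12 (Gbp6). Irgm1 averaged 1.11 ± 1.12 (SD, n = 12) in spindle cell tumors and 1.53 ± 0.91 (n = 29) in epithelial tumors. Tumor by tumor, Irgm1 in spindle cell tumors was 1.84, 1.65 and 0.04 under LFD and 1.61, 1.25 and -0.78 under HFD. It was 2.49, 1.03 and 2.47 under HFD-LFD and -0.48, 2.06 and 0.17 under LFD-HFD. Spindle cell values of Irgm1 thus spanned -0.78 to 2.49, and epithelial values -0.07 to 3.35. The median difference over the 10 genes was -0.35, beside -0.035 over all genes. It was -0.06 with median centring and -0.13 without M63L. The late HFD tumor M63L was the lowest spindle cell tumor for Irgm1, Irgm2, Igtp, Iigp1, Ifi47, Gbp3 and Gbp6, and its Gbp2 was 2.24.

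Onset was also tested in spindle cell tumors, with 3 early against 9 late tumors. Their ratios were also read when the genes were chosen, so this test is not fully independent of the choice. Here 0 of 10 genes passed by limma (adjusted p = 1 for each) or SAM, 0 of 10 had an unadjusted p below 0.05 and 0% of all genes passed by either. Irgm1 was -0.48, 2.06 and 2.49 in the early tumors, and -0.78 to 2.47 with a median of 1.25 in the late ones. The difference was 0.32 with a 95% interval of -1.24 to 1.89, which includes the 1.12 of the epithelial tumors as well as 0. Of the 10 differences 8 were above 0 and those of Iigp1 (-0.10) and Tgtp1 (-0.35) below. Without the early HFD-LFD tumor M129L, the median over the genes went from 0.30 to -0.17, so its sign rested on that tumor.

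A difference of the pubertal HFD effect between the histologies passed in 0 of 10 genes (limma interaction), against 11.7% of all genes, and 0 of 10 had an unadjusted p below 0.05. All 10 interaction differences were above 0, from 0.33 (Gbp6) to 1.097 (Gbp3), with a median of 0.66 beside -0.05 over all genes. The smallest adjusted p was 0.324, for Gbp2, with a difference of 0.85 and a 95% interval of -0.13 to 1.83. When each spindle cell tumor was left out in turn the median over the 10 genes ran from 0.43 to 0.98. In the same contrast 3 of 4 adipocyte markers (median -3.40), 2 of 4 endothelial (-1.25), 2 of 7 epithelial (-1.27) and 1 of 6 mesenchymal markers (-1.20) passed, all lower. Of the 2876 genes called, 2359 were lower, and Krt8 (0.66) and Krt18 (0.25) were above 0. The adipocyte mean was 3.94 in M76R (LFD-HFD) and 1.23 in M32L (LFD), and negative in all other spindle cell tumors. The endothelial mean was 0.76 and 0.59 there and negative in the others. Leaving tumors out was not run for these markers. With slide as a random block 3 of 4 adipocyte, 2 of 4 endothelial, 1 of 7 epithelial and 1 of 6 mesenchymal markers passed. None passed with slide as a fixed block, where the diet effect in epithelial tumors rests on 1 slide, with 2 tumors against 2. The part of these markers in the values of the GTPase genes was not tested.

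**Figure D4:**
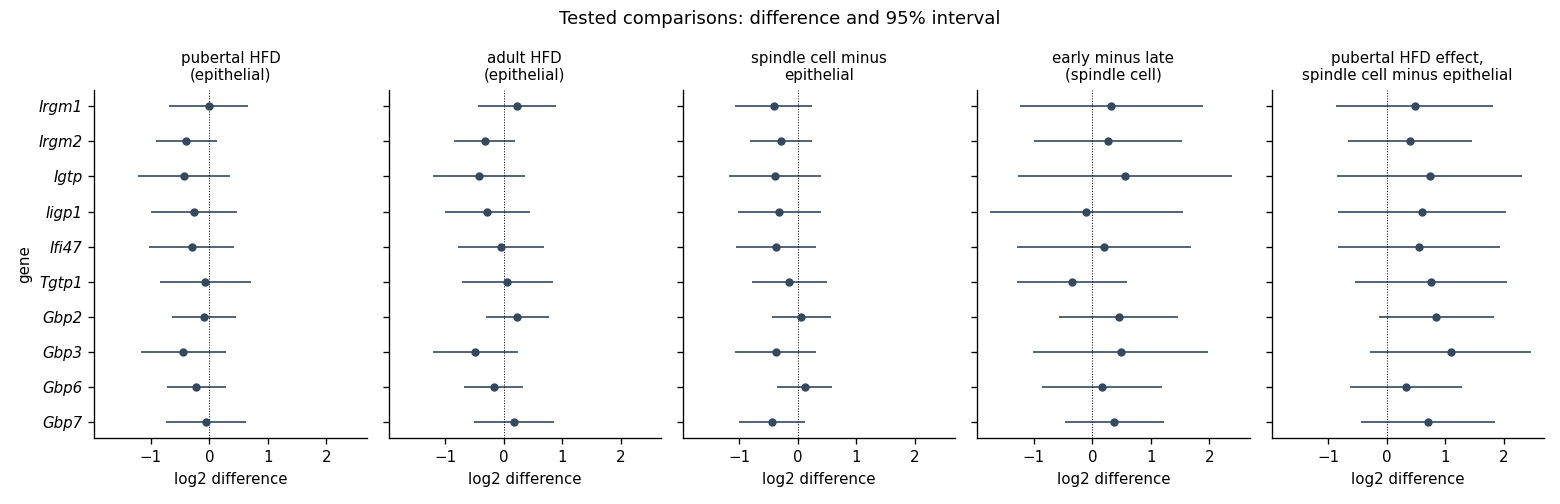
Log2 difference (horizontal axis) with its 95% interval from limma for each of the 10 GTPase genes (vertical axis) in the 5 tested comparisons of 2 groups or 2 effects named above the panels. Each of the 50 intervals includes 0, and those for onset in 3 against 9 spindle cell tumors are widest together with those of the interaction.

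The rest of the pathway was read from lists. Ligand and receptor genes moved little between early and late epithelial tumors: the difference was 0.06 for Ifng, -0.21 for Ifngr1, 0.07 for Ifngr2, -0.04 for Jak1 and -0.03 for Jak2. Ifng itself was dim, well above background on 22 of 41 arrays. The transcription factor gene Irf1 differed by 0.59. None of the 11 interferon-gamma signalling genes passed for pubertal or adult HFD (limma), and between histologies Ptpn2, a phosphatase that acts on Jak kinases, fell by 0.54 in spindle cell tumors (limma, adjusted p = 0.0255).

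Among other IRG and GBP genes, 18 were measured, and 17 were above 0 in early against late epithelial tumors, with a median of 0.66 and the highest for Gbp1 (1.37). Gbp5, which takes part in inflammasome assembly, differed by 0.04. For pubertal and for adult HFD 0 of the 18 passed (limma). Between histologies 9930111J21Rik1 fell by 0.64 in spindle cell tumors (limma, adjusted p = 0.00641), and the other 17 did not pass.

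For 22 other interferon-gamma-induced genes, which include chemokines and antigen presentation genes, 20 were above 0 in early against late epithelial tumors with a median of 0.51. Cxcl10 differed by 1.25 and Cxcl9, a chemokine that draws T cells, by 0.83. For 25 type I interferon genes, 24 were above 0 with a median of 0.70, and Ifit1, a sensor of viral RNA, had the highest difference, 1.51. Stat2, a transcription factor of type I interferon signalling, differed by 0.71. Of the 18 partners of GTPase loading and the inflammasome, which include the autophagy conjugation genes, 10 were above 0 with a median of 0.09. The same contrast chose the GTPase genes, so these medians too are given without a test. In spindle cell tumors none of these lists had a gene past the threshold by onset.

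Irgm1 was most like Ifi203 (r = 0.88), Tgtp2 (r = 0.87), Stat2 (r = 0.86), Gm12250 (r = 0.86) and Lgals9 (r = 0.85) over the epithelial tumors. Mov10, H2-T10, Xaf1, Ifit1 and I830012O16Rik completed its 10 nearest genes, with r of 0.82 to 0.85. These values rest on 29 tumors, or 28 where a spot was missing. Against the average of the 10 genes, each scaled to its own mean and SD, the nearest were TC1703733 (r = 0.91), Gm4951 (r = 0.90), Gm12250 and Tgtp2 (both r = 0.89), Ifi203, Ifi44, Ifit1 and Mx2 (r of 0.88), and F830016B08Rik and Cxcl9 (both r = 0.87). Gm12250, Gm4951, F830016B08Rik and Tgtp2 are themselves IRG genes. Within the late tumors alone, Ifi203 had an r of 0.73 with the average of the 10 genes and Gm4951 0.89.

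The average of the 10 genes went with the mean of the 25 type I interferon genes at r = 0.89 (Spearman's rho 0.83) over the 29 epithelial tumors, and at r = 0.92 in early, 0.74 in late and 0.95 in spindle cell tumors. With the 22 other interferon-gamma-induced genes the value was 0.82 (rho 0.82), with the 11 signalling genes 0.61 (rho 0.60), and with the 18 loading and inflammasome partners 0.49 (rho 0.41). Without the 2 tumors farthest from the median of the list these were 0.90, 0.79, 0.56 and 0.48.

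Markers of host cells were measured beside the GTPase genes, and their part in the result was not tested. In bulk tumor RNA, fewer cells of a type and less RNA per cell cannot be told apart. The mean of 13 T and NK cell markers ranged from -0.58 to 1.34 in early and from -0.59 to 1.42 in late epithelial tumors. Of these markers 9 were above 0 in early against late tumors, with a median difference of 0.16, and Gzmb differed most at 0.63. Cd3e, part of the T cell receptor complex, differed by -0.17 and Cd8a by 0.22. The T and NK marker mean went with the average of the GTPase genes at r = 0.44 (rho 0.46), 0.62 in early and 0.23 in late tumors. For 9 macrophage markers r was 0.05 (rho 0.28) and 0.29 without the 2 farthest tumors, 0.56 in early and -0.22 in late tumors, and for the leukocyte marker Ptprc it was 0.41 (rho 0.47). Their early minus late differences were -0.02 as a median and 0.29.

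The macrophage mean ranged from -0.10 to 1.05 in early and from 0.01 to 2.31 in late tumors. The mean of 6 dendritic cell markers ran from 0.28 to 1.70 and from 0.38 to 1.34, with Xcr1 well above background on 9 of 41 arrays, and r with the GTPase average was 0.53, or 0.74 in early and -0.15 in late tumors. The mean of 4 B cell markers ran from -1.04 to 3.45 and from -0.90 to 4.06, with r of 0.15. Epithelial, endothelial, mesenchymal and adipocyte marker means had r of 0.21, -0.21, -0.20 and 0.12. For the endothelial markers rho was -0.42, and r was -0.48 without the 2 farthest tumors.

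**Figure D5:**
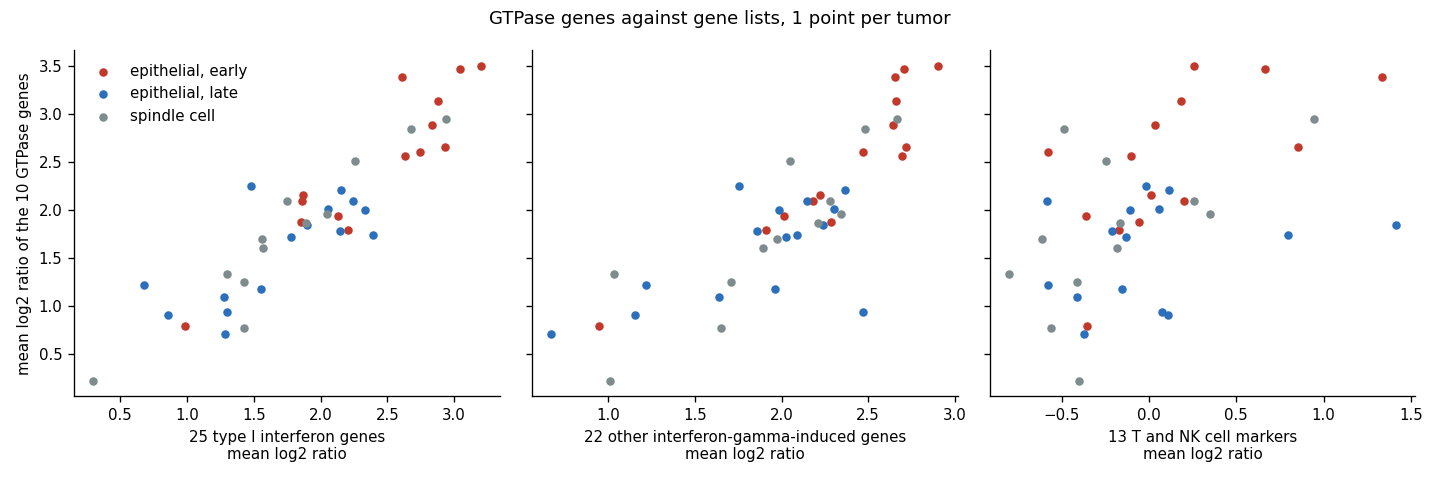
Average log2 ratio of the 10 GTPase genes (vertical axis) against the mean log2 ratio of 25 type I interferon genes, 22 other interferon-gamma-induced genes and 13 T and NK cell markers (horizontal axes), 1 point per tumor, coloured by group. Over the 29 epithelial tumors r is 0.89, 0.82 and 0.44, and early and late tumors overlap along each horizontal axis.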

How the data were processed

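Tumor RNA of 41 tumors was labelled with Cy5 per the labels and hybridised against a pooled reference. The authors deposited scanner output (Agilent Feature Extraction 8.5.1.1, per the submitters' processing notes) with mean, background and processed intensity of each spot and flags of another kind (well above background, saturation, outliers), and a matrix of log2 ratios made by the authors, whose scale and direction matched the scanner files. Replicates are single tumors. Of the numbers in the tumor names 3 are each shared by a pair of tumors, 1 of them across onset in epithelial tumors and 1 across histologies, and what a number marks is not given in the sources used here.

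Mean intensities were background-corrected by normexp (offset 50) and normalized by loess within each array in limma 3.58.1 (R 4.3.3), with outlier spots set missing. Probes with a signal above 10 in both channels on 80% of arrays were kept, and each gene took its probe of highest mean signal, which left 24557 genes. The 10 GTPase genes passed this filter, 0 of their chosen probes were saturated on any array, and none lost a value to an outlier spot. All tests were limma fits over all genes with Benjamini-Hochberg adjustment at 0.10, or 0.05 for histology. The code was tested on simulated data. Precision is set by how many arrays there are.

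The 10 genes and the lists were chosen with earlier results of these data known. Genes named were the 10, the list genes, and the 10 nearest by Pearson r to Irgm1 and to the average of the 10 z scores. The spindle cell arrays carry a later design with other names for 3011 spots. Names of the epithelial arrays were used, and those of the 10 genes are the same in both. Alternatives comprised the processed signals, other corrections, filters and probe rules, the authors' matrix, slide as a block, SAM with 100 permutations, the matrix's sample labels and sets of tumors left out. The slide block for marker genes and the matrix's labels for Irgm1 under HFD were chosen after seeing the data.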

Additional observations from a re-analysis of the deposited data

Results flagged for a closer look

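A test for tumors far from the rest of their group was run on 100 combinations. Each paired a GTPase gene with a group of 4 to 9 tumors, and 10 were picked. The nominal rate of the test is about 1 in 20. Because the genes vary together and some groups lie within others, the picks are not independent and cannot be compared with that rate. In the early HFD group of 4 epithelial tumors, Ifi47 was 4.41 in 40R4A, with the next tumor at 2.90. Among all 8 epithelial HFD tumors the same tumor stood apart for Ifi47 (4.41) and for Igtp (4.18, next 1.998), and it is among the tumors whose matrix columns carry other labels. Tumor 60L stood apart for Gbp7 at 4.65, with the next HFD tumor at 2.60. In the 7 HFD-LFD tumors Tgtp1 was 2.71 in an early tumor and at most 0.66 in the others. On the low side, the early LFD tumor 31R had 1.497 for Irgm2 and 3.25 for Gbp3, against 2.29 and 4.85 for the nearest of the other 3 early LFD tumors. Tumor 13L was the lowest of the 8 LFD tumors for Igtp (-0.013, next 1.995) and Gbp2 (0.90, next 2.26). Among the 9 late spindle cell tumors, M63L had -0.20 for Ifi47, with the next at 1.90.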

How the results depend on the processing

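In each of the 7 tested comparisons, 0 of the 10 genes passed under every alternative that could be run, including the omission of each of 12 spindle cell tumors in turn where these entered. The early minus late differences in epithelial tumors stayed above 0 for all 10 genes under 14 alternatives, with medians from 0.83 (1 tumor per label number) to 1.08 (median centring). Irgm1 was the largest of the 10 under 7 of these 14, and Tgtp1, Iigp1 or Ifi47 under the others. Among the 7, a filter on spots well above background, no filter and keeping outlier spots left Irgm1 at its main value of 1.115. These settings therefore say nothing further about its rank. Some medians over the 10 genes changed direction, and no error was computed for a median. Pubertal HFD in all tumors went from -0.10 to 0.026 without the HFD spindle cell tumor M63L. Adult HFD went from -0.11 to 0.048 with 1 tumor per label number, and onset in spindle cell tumors from 0.30 to -0.17 without M129L. Standard errors of single genes in these comparisons ran from 0.21 to 0.35, from 0.248 to 0.385 and from 0.386 to 0.839. When each spindle cell tumor was left out in turn, these medians ran from -0.16 to 0.03 for pubertal HFD, from -0.46 to -0.13 (without M63L) between histologies and from -0.17 to 0.82 for onset. Median centring moved the median of all genes from -0.035 to 0.10 between histologies and from -0.05 to 0.11 for the interaction. The count of all genes called moved with the setting, from 0 to 4085 for pubertal HFD in epithelial tumors and from 57 to 3336 for the interaction. Slide as a fixed block could not be fitted for histology, adult HFD or the regimens, because slide and group cannot be separated there. The difference of Gbp7 is limited by its dim second probe, and that of Tgtp1 by signals near background. No paired analysis was possible because only 1 number in the tumor names links early with late epithelial tumors, 1 links the histologies and 0 link regimens.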
